A study of Mus musculus with 12 samples.

Results

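The 39 genes described here encode proteins of fatty acid uptake, activation, carnitine-dependent import, beta-oxidation and triglyceride turnover. They were taken by symbol from a fixed list, out of 78334 gene rows in the count table, and all 39 had enough counts to be tested among 16981 genes. Poly(A) RNA of left ventricular tissue was sequenced from 12 mice in 3 groups of 4. Sham vehicle mice had a sham operation and ate normal chow. UNX/DOCA vehicle mice had UNX/DOCA surgery, the removal of a kidney combined with the mineralocorticoid deoxycorticosterone acetate, which is used to induce diastolic dysfunction, and ate normal chow. UNX/DOCA ITF2357 mice had the same surgery and ate chow containing ITF2357, also known as givinostat, which inhibits histone deacetylases, for 4 weeks, starting 4 weeks after surgery. No Sham group received ITF2357. Age, sex and strain are not stated in the labels, which call the libraries of a group biological replicates.

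The adult heart draws most of its ATP from fatty acids. Lipoprotein lipase frees them from circulating triglyceride, CD36 and fatty acid transport proteins carry them over the cell membrane, and the heart-type fatty acid binding protein holds them in the cytosol. After activation to acyl-CoA they enter mitochondria on carnitine, are shortened in a repeating cycle of 4 kinds of reaction, and pass electrons to the respiratory chain through the electron transfer flavoprotein. Nuclear receptors of the PPAR and ERR families, with the coactivator PGC-1alpha, are well known to control these genes, and a lower expression of the pathway is often described in failing hearts.

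Libraries held 23354045 to 34908810 counts. Values are CPM, a gene's counts relative to the total of its library, scaled by edgeR's TMM factors, so they are relative to the rest of the library, and in a whole tissue fewer cells of a type and less RNA per cell cannot be told apart. Cardiomyocyte markers were abundant in every library (12 of 12 detected, summed level 70510 to 88210 CPM). Sham vehicle replicate 3 stood apart for the genes described here: it was the highest of its group for 33 of 39, against 28.9% of all genes. It also had the highest cardiomyocyte marker sum, at 88210 CPM against 73870 to 80530 in the other Sham libraries. UNX/DOCA ITF2357 replicate 4 was the highest of its group for 26 of 39 genes, against 28.4% of all genes. UNX/DOCA vehicle replicates 3 and 4 had summed neutrophil markers of 514.1 and 158.9 CPM, against 3.81 to 45.1 CPM elsewhere, and macrophage marker sums of 635.1 and 460.2 CPM, against 216 to 396.2 CPM elsewhere. The part of these differences in the results was not tested. Only some of the results that involve these libraries are given with and without them.

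Across the 39 genes, a single one passed the test, in a single comparison: Fabp3, the heart-type fatty acid binding protein, rose in UNX/DOCA ITF2357 over Sham vehicle. The test was edgeR's quasi-likelihood test with Benjamini-Hochberg adjustment over all genes at a threshold of 0.05. Between UNX/DOCA vehicle and Sham vehicle 0 of 39 genes passed, as did 0% of all genes. At an unadjusted p under 0.05 there were 6 of the 39 (15.4%, 4 higher and 2 lower), against 15.9% of all genes (9.42% higher and 6.47% lower). Between UNX/DOCA ITF2357 and UNX/DOCA vehicle 0 of 39 passed, against 0.901% of all genes (0.459% higher and 0.442% lower). Here 6 (15.4%, 4 higher and 2 lower) had an unadjusted p under 0.05, against 18.5% (8.7% higher and 9.8% lower). Between UNX/DOCA ITF2357 and Sham vehicle 1 of 39 passed (2.56%), against 1.75% of all genes (0.913% higher and 0.842% lower). In that comparison 9 (23.1%, 4 higher and 5 lower) had an unadjusted p under 0.05, against 20.1% (10.7% higher and 9.39% lower). These shares lie near those of all genes and are not read as a result about the pathway. The 3 comparisons share groups and are not independent of each other.

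Levels of the pathway differed little between groups in the median, and the intervals were narrower than those of all genes. The median log2 fold change of the 39 genes was -0.07 for UNX/DOCA vehicle against Sham vehicle, 0.03 for UNX/DOCA ITF2357 against UNX/DOCA vehicle and -0.02 for UNX/DOCA ITF2357 against Sham vehicle. Over all genes tested the medians were 0.007, -0.001 and 0.014. The 95% interval of the fold change lay wholly within 1.5-fold in either direction for 34, 36 and 34 of 39 genes in these comparisons, against 52.5%, 51.6% and 51.3% of all genes. Its median half-width was 0.19 on the log2 scale, against 0.36 over all genes. Changes beyond 1.5-fold were thus outside the interval for most of the pathway. All genes tested include many of low count: of the 16981, 11214 had a mean of at least 3 CPM. Genes matched for level were not compared, so the narrower intervals are not read as a trait of the pathway. In UNX/DOCA vehicle against Sham vehicle 11 of the 39 log2 fold changes (28.2%) were above 0 and 28 below, against 51.1% above and 48.9% below for all genes, and with 1 library left out the number above 0 ran from 5 (without UNX/DOCA vehicle replicate 2) to 17 (without Sham vehicle replicate 3), with 7 without Sham vehicle replicate 1. Between the UNX/DOCA groups 22 (56.4%) were above 0 and 17 below, against 49.8% and 50.2% of all genes, and the number above ran from 16 without UNX/DOCA ITF2357 replicate 4 to 26 without its replicate 3. In UNX/DOCA ITF2357 against Sham vehicle 17 (43.6%) were above 0 and 22 below, against 52.3% and 47.7%, and the number above went from 11 without UNX/DOCA ITF2357 replicate 4 to 20 without Sham vehicle replicate 3 or without UNX/DOCA ITF2357 replicate 3.

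**Figure D1:**
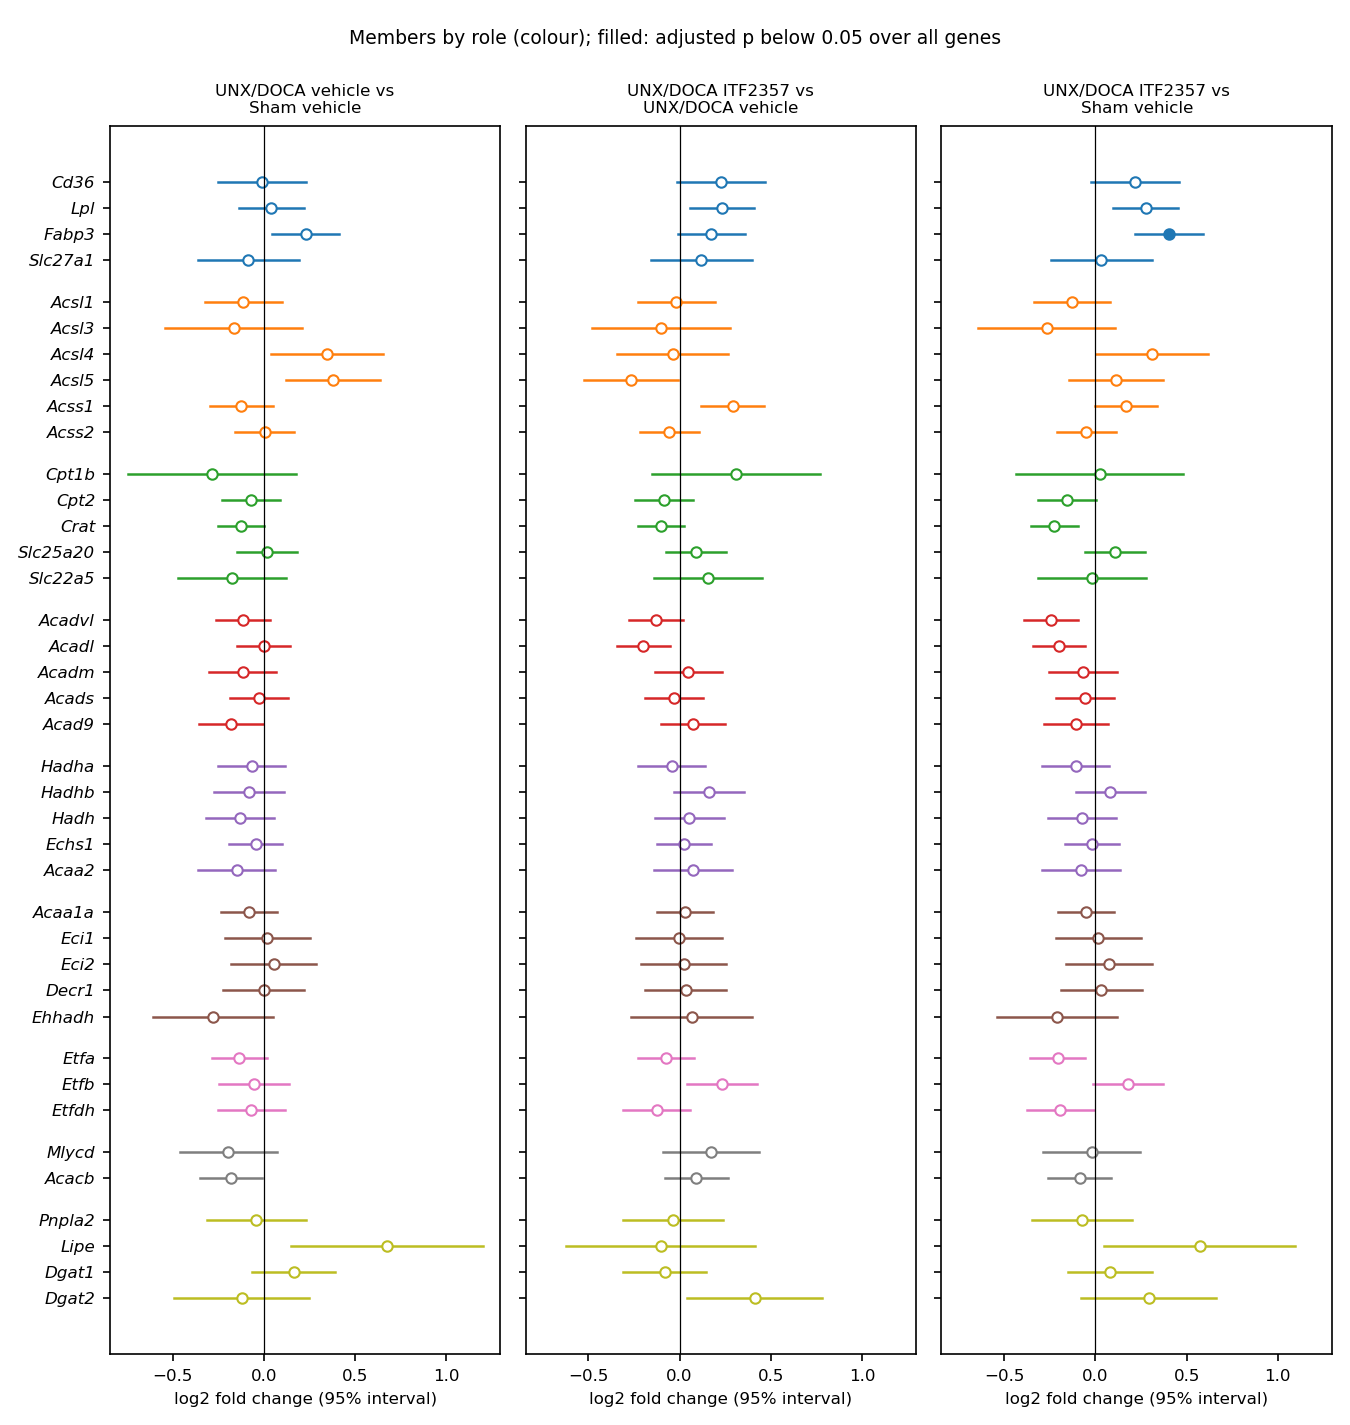
Log2 fold change (horizontal axis) with its 95% interval for each of the 39 genes, grouped by role and coloured by role, in the 3 comparisons; a filled point passed the adjusted threshold. Fabp3 in UNX/DOCA ITF2357 against Sham vehicle is the single filled point, and most intervals cross 0.

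Among genes of uptake and binding, Fabp3 was the most abundant of the 39 per kilobase of transcript. Its levels were 2257, 2241, 2576 and 2250 CPM in Sham vehicle, 2727, 2793, 2415 and 2997 CPM in UNX/DOCA vehicle, and 2849, 3151, 2828 and 3510 CPM in UNX/DOCA ITF2357. Every ITF2357 library was above every Sham library, while the UNX/DOCA vehicle libraries overlapped with both. Group means were 2331 ± 163, 2733 ± 241 and 3084 ± 320 CPM (SD, n = 4). Fabp3 was higher in UNX/DOCA ITF2357 than in Sham vehicle by a log2 fold change of 0.40 (SE 0.09, adjusted p = 0.0386 by edgeR). Against Sham vehicle the UNX/DOCA vehicle group differed by 0.23 (SE 0.09, adjusted p = 0.229), and the 2 UNX/DOCA groups differed by 0.17 (SE 0.09, adjusted p = 0.296), neither of which passed. The call sat close to the threshold: it ended when any of 8 of the 12 libraries was left out (Sham vehicle replicates 1, 2 and 4, UNX/DOCA vehicle replicates 2 and 4, and UNX/DOCA ITF2357 replicates 2, 3 and 4), with adjusted p from 0.0537 to 0.124 and log2 fold changes from 0.33 to 0.43. It also ended with Sham vehicle replicate 3 and UNX/DOCA ITF2357 replicate 4 both left out (0.38, adjusted p = 0.0741).

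The other 3 uptake genes did not pass in any comparison. Lpl, which encodes lipoprotein lipase, stood at 4811, 4181, 4893 and 4800 CPM in Sham vehicle, 4521, 5207, 4797 and 4707 CPM in UNX/DOCA vehicle, and 5395, 5671, 5036 and 6508 CPM in UNX/DOCA ITF2357. Every ITF2357 library was again above every Sham library, but 1 of them lay below the highest UNX/DOCA vehicle library. The log2 fold change of Lpl in UNX/DOCA ITF2357 was 0.28 (SE 0.08, adjusted p = 0.0935) against Sham vehicle and 0.23 (SE 0.08, adjusted p = 0.161) against UNX/DOCA vehicle. Cd36, the fatty acid translocase, gave 1822, 1960, 2444 and 2010 CPM in Sham vehicle, 2332, 2172, 1692 and 1988 CPM in UNX/DOCA vehicle, and 2142, 2546, 2265 and 2618 CPM in UNX/DOCA ITF2357. Its groups overlapped in all 3 comparisons, and its log2 fold changes in UNX/DOCA ITF2357 were 0.23 (adjusted p = 0.298) against UNX/DOCA vehicle and 0.22 (adjusted p = 0.298) against Sham vehicle. Slc27a1, a fatty acid transport protein, ranged from 119 to 186 CPM over the 12 libraries, with adjusted p of 0.658 or more.

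The promoter of Fabp3 is shown because it is the gene that passed, and that of Cd36 because it held a match to the PPAR and RXR motif. The bases before the start site are given 5′ to 3′ on the gene's strand, from RefSeq (GRCm38.p6), at chr4:130308488-130308737 (plus strand) for Fabp3 and chr5:17835897-17836146 (minus strand) for Cd36. Capitals mark matches: in Cd36 a CCAAT box and, on the opposite strand, a direct repeat of AGGTCA (a pair of copies with a single base between them) with up to 2 mismatches. The Fabp3 window held no match to any motif searched.
Fabp3: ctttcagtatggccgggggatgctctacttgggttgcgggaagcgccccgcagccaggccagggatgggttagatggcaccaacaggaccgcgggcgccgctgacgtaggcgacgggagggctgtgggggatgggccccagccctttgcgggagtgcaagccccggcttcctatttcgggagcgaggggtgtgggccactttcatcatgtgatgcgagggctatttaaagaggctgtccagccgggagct
Cd36: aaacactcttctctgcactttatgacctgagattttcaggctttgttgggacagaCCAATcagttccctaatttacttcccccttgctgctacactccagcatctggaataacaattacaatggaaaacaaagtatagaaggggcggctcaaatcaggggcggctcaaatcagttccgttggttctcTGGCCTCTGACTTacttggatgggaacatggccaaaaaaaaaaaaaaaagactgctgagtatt
Of the 39 genes, 31 had a window in the table (35 windows), searched on both strands over 250 bases before and 50 bases after the start. The exact direct repeat was in 0% of these windows and in 0.0396% of all 32851 windows. With up to 2 mismatches it was in 11.4% of the genes' windows (Cd36, Echs1, Etfa and Slc25a20), against 3.86% of all windows. The ERR element AAGGTCA was in 5.71% (Acadm and Acacb), against 4.72%. The E-box CACGTG was in 5.71%, against 7.15%, and CCAAT in 45.7%, against 37.4%. A match describes letters in the window and is not a measured binding site.

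**Figure D2:**
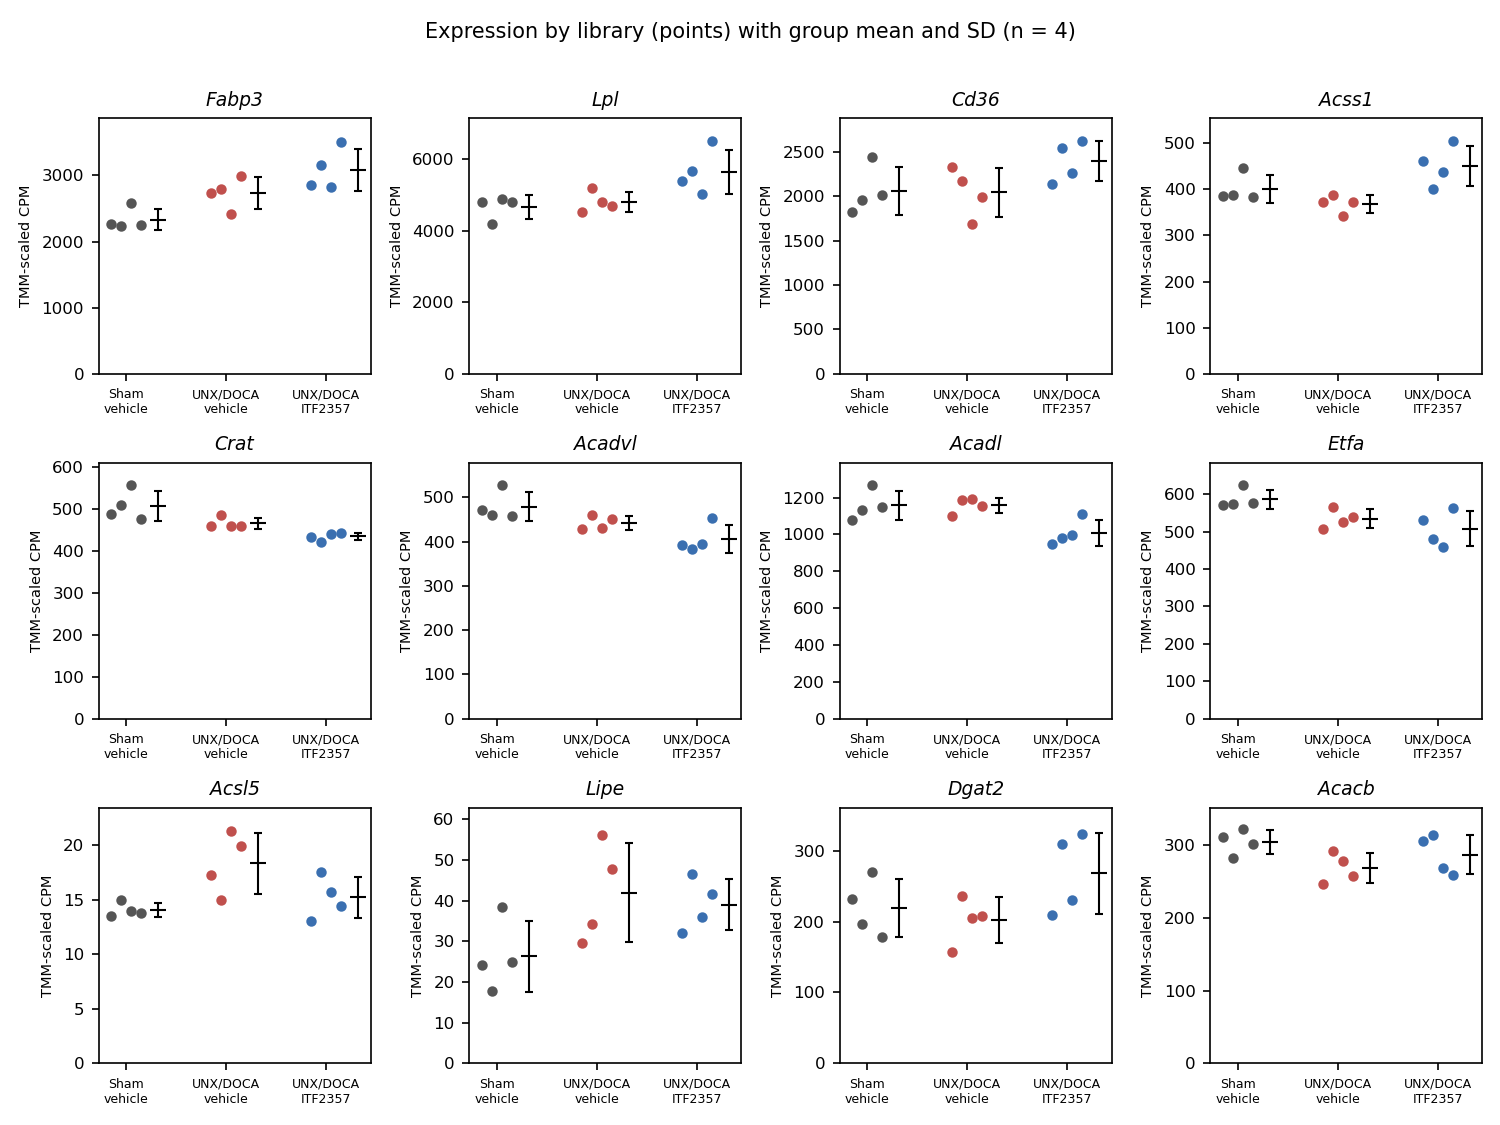
TMM-scaled CPM (vertical axes, from 0) of 12 genes in each library, by group, with the group mean and SD (n = 4) beside the points; the genes were chosen after their values were seen. Fabp3 and Lpl in UNX/DOCA ITF2357 lie above all Sham vehicle libraries, and Crat, Acadvl and Etfa lie below them.

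Activation of fatty acids and of acetate is done by acyl-CoA and acetyl-CoA synthetases, and 0 of 6 passed in any comparison. Acsl1, the main long-chain acyl-CoA synthetase of heart, stood at 846, 969, 1147 and 1043 CPM in Sham vehicle, 984, 989, 775 and 960 CPM in UNX/DOCA vehicle, and 864, 911, 934 and 955 CPM in UNX/DOCA ITF2357. Its groups overlapped throughout, with adjusted p of 0.493 or more. Acss1, the mitochondrial acetyl-CoA synthetase, gave 386, 389, 446 and 384 CPM in Sham vehicle, 373, 389, 341 and 372 CPM in UNX/DOCA vehicle, and 460, 401, 437 and 505 CPM in UNX/DOCA ITF2357. Every ITF2357 library was above every UNX/DOCA vehicle library. The log2 fold change was 0.29 (SE 0.08, adjusted p = 0.0913), the smallest adjusted p of the 39 genes in that comparison, and with DESeq2 it was 0.29 (adjusted p = 0.0307). Acss1 passed under no other setting.

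Acsl5, a long-chain synthetase of lower abundance, had the smallest adjusted p of the 39 genes between UNX/DOCA vehicle and Sham vehicle. It stood at 13.5, 14.9, 14.0 and 13.7 CPM in Sham vehicle, 17.2, 14.9, 21.3 and 19.9 CPM in UNX/DOCA vehicle, and 13.1, 17.6, 15.7 and 14.4 CPM in UNX/DOCA ITF2357. The log2 fold change of 0.38 (SE 0.12, adjusted p = 0.170) did not pass. The 2 highest values belonged to the libraries with the highest neutrophil and macrophage marker sums, and with those libraries left out it was 0.19 (adjusted p = 0.812). Leaving out the highest values lowers the fold change in any case, and a link to these markers was not tested. Acsl4, which prefers arachidonic acid, gave a log2 fold change of 0.35 (SE 0.14, adjusted p = 0.265) in the same comparison and 0.22 (adjusted p = 0.833) without those 2 libraries. Acsl3 (4.79 to 7.68 CPM) and the cytosolic Acss2 (25.6 to 31.6 CPM) overlapped between groups in all 3 comparisons.

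The carnitine shuttle moves acyl groups over the mitochondrial membranes, and 0 of its 5 genes passed. Crat, carnitine acetyltransferase, which buffers acetyl-CoA as acetylcarnitine, was at 487, 508, 557 and 476 CPM in Sham vehicle, 458, 486, 459 and 458 CPM in UNX/DOCA vehicle, and 434, 421, 440 and 441 CPM in UNX/DOCA ITF2357. The 4 ITF2357 libraries were below all 8 others. Against Sham vehicle the log2 fold change was -0.22 (SE 0.06, adjusted p = 0.0664), and against UNX/DOCA vehicle it was -0.10 (SE 0.06, adjusted p = 0.382). With DESeq2 the first of these gave -0.23 (adjusted p = 0.00467), and without Sham vehicle replicate 3 and UNX/DOCA ITF2357 replicate 4 edgeR gave -0.19 (adjusted p = 0.141). Cpt2 (175 to 238 CPM), the inner-membrane carnitine palmitoyltransferase, Slc25a20 (136 to 169 CPM), the carnitine-acylcarnitine translocase, and Slc22a5 (21.8 to 37.3 CPM), the carnitine transporter of the cell membrane, overlapped between groups.

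Cpt1b, the muscle isoform of the outer-membrane carnitine palmitoyltransferase and the known rate-limiting step of import, had an unusually low level that is uncertain. Its levels were 4.71, 2.99, 5.02 and 3.80 CPM in Sham vehicle, 4.05, 2.84, 3.28 and 3.34 CPM in UNX/DOCA vehicle, and 2.85, 5.10, 3.87 and 4.93 CPM in UNX/DOCA ITF2357. The groups overlapped, and the intervals were wide: the log2 fold change against Sham vehicle was -0.29 (95% interval -0.75 to 0.18) in UNX/DOCA vehicle and 0.02 (-0.43 to 0.48) in UNX/DOCA ITF2357. In the GRCm38 annotation 81.4% of the exonic bases of Cpt1b lie under another gene model on the same strand, Gm44502, which is listed at 0 in all 12 libraries. Etfb shares 53% of its exonic bases with Gm45233, also on the same strand and also at 0. How reads over such shared bases were counted is not given in the sources used here. The levels of Cpt1b and Etfb, and their place in any order of abundance, are therefore uncertain, and the part of the overlap was not tested. Cpt1a, the isoform known from liver and fetal heart, stood at 44.7 ± 10.6, 54.2 ± 6.81 and 57.5 ± 17.2 CPM (SD, n = 4) in the Sham, UNX/DOCA vehicle and ITF2357 groups and did not pass (adjusted p 0.328 or more).

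The acyl-CoA dehydrogenases open each cycle of beta-oxidation, each for its own range of chain lengths, and 0 of 5 passed. In UNX/DOCA ITF2357 against Sham vehicle all 5 fold changes were below 0, with a median of -0.11 on the log2 scale. Acadvl, the very long-chain enzyme, stood at 472, 460, 527 and 457 CPM in Sham vehicle, 428, 460, 431 and 452 CPM in UNX/DOCA vehicle, and 391, 384, 394 and 452 CPM in UNX/DOCA ITF2357. Every ITF2357 library was below every Sham library, with a log2 fold change of -0.24 (SE 0.07, adjusted p = 0.0853). Under other settings that comparison passed with DESeq2 (-0.25, adjusted p = 0.0180), limma-voom with sample weights (-0.23, adjusted p = 0.0328) and scaling by library totals (-0.24, adjusted p = 0.0413). Acadvl did not pass under the remaining settings or with any single library left out. Nor did it pass with Sham vehicle replicate 3 and UNX/DOCA ITF2357 replicate 4 both left out. Of the exonic bases of Acadvl 42.9% overlap Dvl2 on the opposite strand, and the strand setting of the counting is not given in the sources used here.

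Acadl, the long-chain enzyme, was at 1081, 1131, 1269 and 1151 CPM in Sham vehicle, 1100, 1189, 1190 and 1153 CPM in UNX/DOCA vehicle, and 947, 981, 995 and 1112 CPM in UNX/DOCA ITF2357. The means of the 2 vehicle groups were the same to 4 digits (1158 CPM), and the ITF2357 group was lower than each by 0.20 on the log2 scale without passing (SE 0.07, adjusted p = 0.146 against UNX/DOCA vehicle and 0.125 against Sham vehicle). A single ITF2357 library, replicate 4, lay within the range of the others. Acadm, the medium-chain enzyme, gave 1316, 1267, 1439 and 1170 CPM in Sham vehicle, 1170, 1333, 1127 and 1159 CPM in UNX/DOCA vehicle, and 1279, 1112, 1169 and 1392 CPM in UNX/DOCA ITF2357. Its groups overlapped in all comparisons, with log2 fold changes between -0.12 and 0.05. Acads, the short-chain enzyme (185 to 231 CPM), and Acad9 (27.3 to 39.05 CPM), which also serves in complex I assembly, overlapped likewise.

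In the later steps of the cycle 0 of 5 genes passed and no comparison separated the groups. Hadha and Hadhb encode the alpha and beta subunits of the mitochondrial trifunctional protein, which carries out the last 3 reactions on long chains. Hadha stood at 1365, 1166, 1558 and 1248 CPM in Sham vehicle, 1197, 1314, 1297 and 1293 CPM in UNX/DOCA vehicle, and 1257, 1148, 1197 and 1350 CPM in UNX/DOCA ITF2357. Hadhb stood at 1704, 1539, 1893 and 1564 CPM in Sham vehicle, 1558, 1684, 1489 and 1611 CPM in UNX/DOCA vehicle, and 1803, 1629, 1609 and 2053 CPM in UNX/DOCA ITF2357. Each gene's groups overlapped, with adjusted p of 0.516 or more for Hadha and 0.347 or more for Hadhb.

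The ratio of Hadhb to Hadha counts within a library, looked at after the values were seen and so given without a test, was 1.248, 1.32, 1.215 and 1.253 in the Sham group. In the UNX/DOCA vehicle group it was 1.302, 1.282, 1.148 and 1.246, and with ITF2357 it was 1.434, 1.419, 1.344 and 1.52. All 4 ITF2357 libraries were above the 8 others, with group means of 1.26 ± 0.0439, 1.24 ± 0.0681 and 1.43 ± 0.0723 (SD, n = 4). Such a ratio within a library does not depend on the scaling between libraries, and it does not say which of the 2 genes moved. Ratios of other gene pairs were not looked at. How often a pair picked in this way separates the groups is therefore not known, and no change is concluded from it. The genes are read in opposite directions from start sites 272 bases apart, so their promoters are largely the same DNA. The sequence before the Hadhb start site is shown for this reason, 5′ to 3′ on its strand, from RefSeq (GRCm38.p6), at chr5:30155003-30155252 (plus strand). Capitals mark the 228 bases that it shares with the promoter window of Hadha.
Hadhb: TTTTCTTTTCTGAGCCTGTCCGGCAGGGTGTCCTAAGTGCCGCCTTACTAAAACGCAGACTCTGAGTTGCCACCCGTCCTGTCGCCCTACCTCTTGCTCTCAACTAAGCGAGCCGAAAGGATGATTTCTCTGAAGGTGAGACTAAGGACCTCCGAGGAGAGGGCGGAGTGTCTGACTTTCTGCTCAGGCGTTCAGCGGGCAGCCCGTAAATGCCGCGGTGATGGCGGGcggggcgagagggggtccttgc
The remaining genes of these steps were Hadh (417 to 557 CPM), the 3-hydroxyacyl-CoA dehydrogenase of shorter chains, Echs1 (338 to 410 CPM), the enoyl-CoA hydratase, and Acaa2 (594 to 825 CPM), the thiolase. Their log2 fold changes lay between -0.15 and 0.07.

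**Figure D3:**
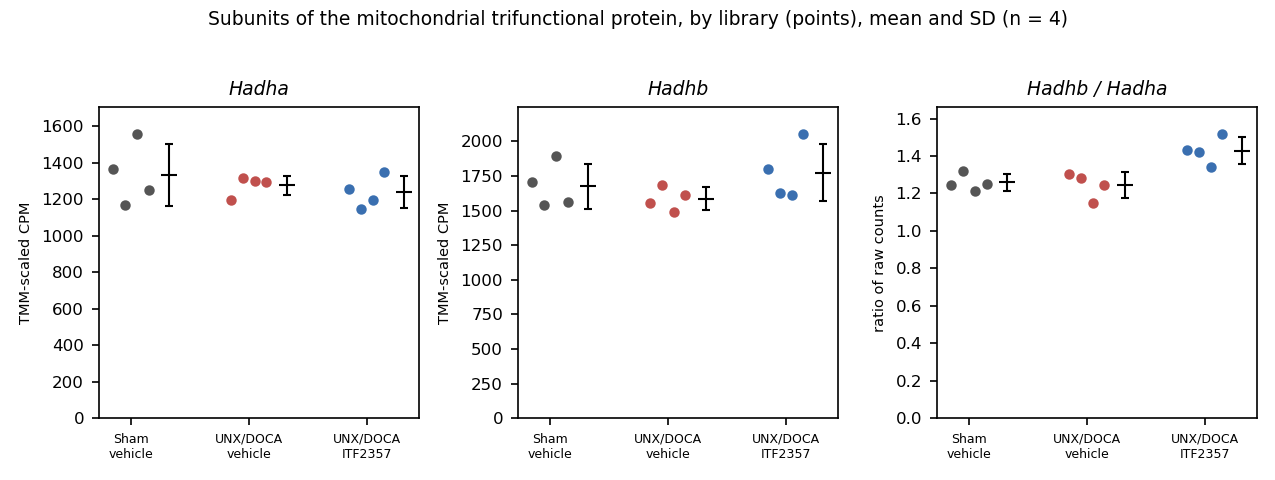
Hadha and Hadhb in TMM-scaled CPM and the ratio of their raw counts (vertical axes, from 0) in each library, with the mean and SD of each group of 4. The groups overlap for each gene, while the ratio runs from 1.34 to 1.52 in UNX/DOCA ITF2357 and reaches at most 1.32 in the other libraries.

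Enzymes for unsaturated fatty acids and for peroxisomal chains gave 0 of 5 passing. Ehhadh, the peroxisomal bifunctional enzyme and a classical PPARalpha target, was at 10.0, 9.72, 10.6 and 14.9 CPM in Sham vehicle, 10.5, 9.34, 9.23 and 8.16 CPM in UNX/DOCA vehicle, and 10.9, 10.4, 7.74 and 9.94 CPM in UNX/DOCA ITF2357. A single Sham library, replicate 4, was above the rest, and the other 11 ran together. Its log2 fold change was -0.28 (SE 0.15, adjusted p = 0.390) in UNX/DOCA vehicle and -0.21 (SE 0.15, adjusted p = 0.467) in UNX/DOCA ITF2357, each against Sham vehicle. Eci1 (187 to 259 CPM) and Eci2 (90.5 to 123 CPM), the enoyl-CoA isomerases, Decr1 (292 to 384 CPM), the dienoyl-CoA reductase, and Acaa1a (46.7 to 58.1 CPM), the peroxisomal thiolase, stayed between -0.08 and 0.08 on the log2 scale in all 3 comparisons.

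The electron transfer flavoprotein takes electrons from the dehydrogenases, and Etfdh passes them to ubiquinone; 0 of the 3 genes passed. Etfa, the alpha subunit, stood at 571, 575, 625 and 576 CPM in Sham vehicle, 508, 566, 526 and 540 CPM in UNX/DOCA vehicle, and 532, 480, 459 and 562 CPM in UNX/DOCA ITF2357. All 8 UNX/DOCA libraries were below all 4 Sham libraries. The log2 fold changes against Sham vehicle were -0.13 (SE 0.07, adjusted p = 0.376) in UNX/DOCA vehicle and -0.21 (SE 0.07, adjusted p = 0.130) in UNX/DOCA ITF2357. Etfdh ran from 560.5 to 728.5 CPM in Sham vehicle and from 529.5 to 559.8 CPM in UNX/DOCA ITF2357, just without overlap, at -0.19 (SE 0.08, adjusted p = 0.226). Without Sham vehicle replicate 3 and UNX/DOCA ITF2357 replicate 4 that value was -0.13 (adjusted p = 0.435). Etfb, the beta subunit, whose level is uncertain for the overlap given above, was 12.7 ± 0.798 CPM in UNX/DOCA vehicle and 14.9 ± 1.40 CPM in UNX/DOCA ITF2357 (SD, n = 4). Its libraries did not overlap between those groups, at a log2 fold change of 0.23 (SE 0.09, adjusted p = 0.193).

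Groups without overlap were thus found for 1 of 39 genes (2.56%) between UNX/DOCA vehicle and Sham vehicle (Etfa, lower), against 9.39% of all genes (5.03% higher and 4.36% lower). Between UNX/DOCA ITF2357 and UNX/DOCA vehicle there were 3 (7.69%: Acss1 and Etfb higher, Crat lower), against 9.31% (4.95% higher and 4.36% lower). Between UNX/DOCA ITF2357 and Sham vehicle there were 6 (15.4%), against 13.7% (7.27% higher and 6.39% lower). Of the 39 genes, 2 were higher (Fabp3 and Lpl) and 4 were lower (Crat, Acadvl, Etfa and Etfdh), and no pattern by role is read from them. The shares are near or under the background, and Fabp3 alone passed the test.

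Malonyl-CoA inhibits carnitine palmitoyltransferase, and the 2 genes that set its level in muscle did not pass. Acacb, the mitochondrial acetyl-CoA carboxylase that makes it, was at 312, 282, 322 and 302 CPM in Sham vehicle, 246, 292, 279 and 258 CPM in UNX/DOCA vehicle, and 306, 313, 268 and 259 CPM in UNX/DOCA ITF2357. A single UNX/DOCA vehicle library, replicate 2, reached the Sham range, and the log2 fold change was -0.18 (SE 0.08, adjusted p = 0.302). Mlycd, the decarboxylase that removes it, gave 99.8, 93.8, 117 and 101 CPM in Sham vehicle, 114, 78.4, 75.3 and 91.3 CPM in UNX/DOCA vehicle, and 104, 103, 89.4 and 109 CPM in UNX/DOCA ITF2357. Its UNX/DOCA vehicle libraries had the widest spread (89.8 ± 17.7 CPM, SD, n = 4), and the log2 fold change against Sham vehicle was -0.19 (SE 0.12, adjusted p = 0.466).

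Triglyceride breakdown and synthesis also gave 0 of 4 passing. Pnpla2, which encodes the first lipase of the droplet (ATGL), stood at 270, 267, 369 and 268 CPM in Sham vehicle, 243, 270, 334 and 294 CPM in UNX/DOCA vehicle, and 259, 310, 245 and 301 CPM in UNX/DOCA ITF2357, with groups that overlapped throughout (adjusted p 0.789 or more). Lipe, hormone-sensitive lipase, had the largest fold change of the 39 genes and a wide spread. Its levels were 24.1, 17.7, 38.5 and 25.03 CPM in Sham vehicle, 29.6, 34.3, 56.3 and 47.9 CPM in UNX/DOCA vehicle, and 32.1, 46.5, 35.9 and 41.6 CPM in UNX/DOCA ITF2357. Against Sham vehicle the log2 fold change was 0.68 (95% interval 0.15 to 1.2, adjusted p = 0.213) in UNX/DOCA vehicle and 0.57 (0.05 to 1.09, adjusted p = 0.214) in UNX/DOCA ITF2357. A single Sham library, replicate 3, overlapped with the UNX/DOCA groups, and the 2 highest values were those of UNX/DOCA vehicle replicates 3 and 4, without which the first value was 0.28 (adjusted p = 0.891). Leaving out the highest values lowers the fold change in any case.

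Lipe also marks adipocytes. Summed over a list of 10 white adipocyte markers that includes Lipe, levels were 48.5 to 69.8 CPM in Sham vehicle, 57.3 to 89.0 CPM in UNX/DOCA vehicle and 84.9 to 112 CPM in UNX/DOCA ITF2357. The defining markers were near 0 in every library: Adipoq had 0 to 11 counts, Plin1 0 to 20, Cidec 0 to 21 and Lep 0 to 1, and all were below the filter. Of the 4 markers tested, Thrsp, which is also a lipogenic gene, rose from 27.6 ± 4.36 CPM in Sham vehicle to 57.9 ± 7.67 CPM in UNX/DOCA ITF2357 (SD, n = 4; 1.07, adjusted p = 0.0162). Cfd and Adig, at under 2 CPM in every library, had log2 fold changes of -0.77 (adjusted p = 0.384) and -0.64 (adjusted p = 0.524), and the median of the 4 was -0.03. In UNX/DOCA vehicle Thrsp stood at 24.3, 41.3, 30.2 and 39.4 CPM. Dgat2, which joins the last acyl group to triglyceride, ran from 178 to 270 CPM in Sham vehicle, 158 to 236 CPM in UNX/DOCA vehicle and 209 to 324 CPM in UNX/DOCA ITF2357. Its log2 fold change between the UNX/DOCA groups was 0.41 (SE 0.17, adjusted p = 0.219). Dgat1 (17.2 to 24.9 CPM), the other acyltransferase of that step, overlapped between groups.

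Levels of different genes are compared here only per kilobase of the principal transcript of the GRCm38 annotation, a length added after the data were seen. In Sham vehicle Fabp3 led at 2832 ± 198 CPM per kb, followed by Lpl at 1135 ± 80.1 and Hadhb at 817.9 ± 79.5 CPM per kb (SD, n = 4), and these 3 did not overlap with the next in order. Acadm (634.2), Cd36 (605.7) and Acadl (604.3 CPM per kb) came next, and their libraries overlapped. Acaa2, Etfa and Hadha followed at 473.9, 421.4 and 332.2 CPM per kb. The bottom of the order held Ehhadh, Acsl5, Acsl4, Acsl3 and Cpt1b, at 3.79, 3.31, 2.60, 1.64 and 1.43 CPM per kb. The first 3 places were the same in all 3 groups. When the union of all annotated exons was used as the length, as planned, Fabp3 stayed first at 2832 CPM per kb, but Lpl went to 445.8 and Hadhb to 254.0 CPM per kb, behind Acadl (577.5), Cd36 (573.5) and Acaa2 (473.9).

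**Figure D4:**
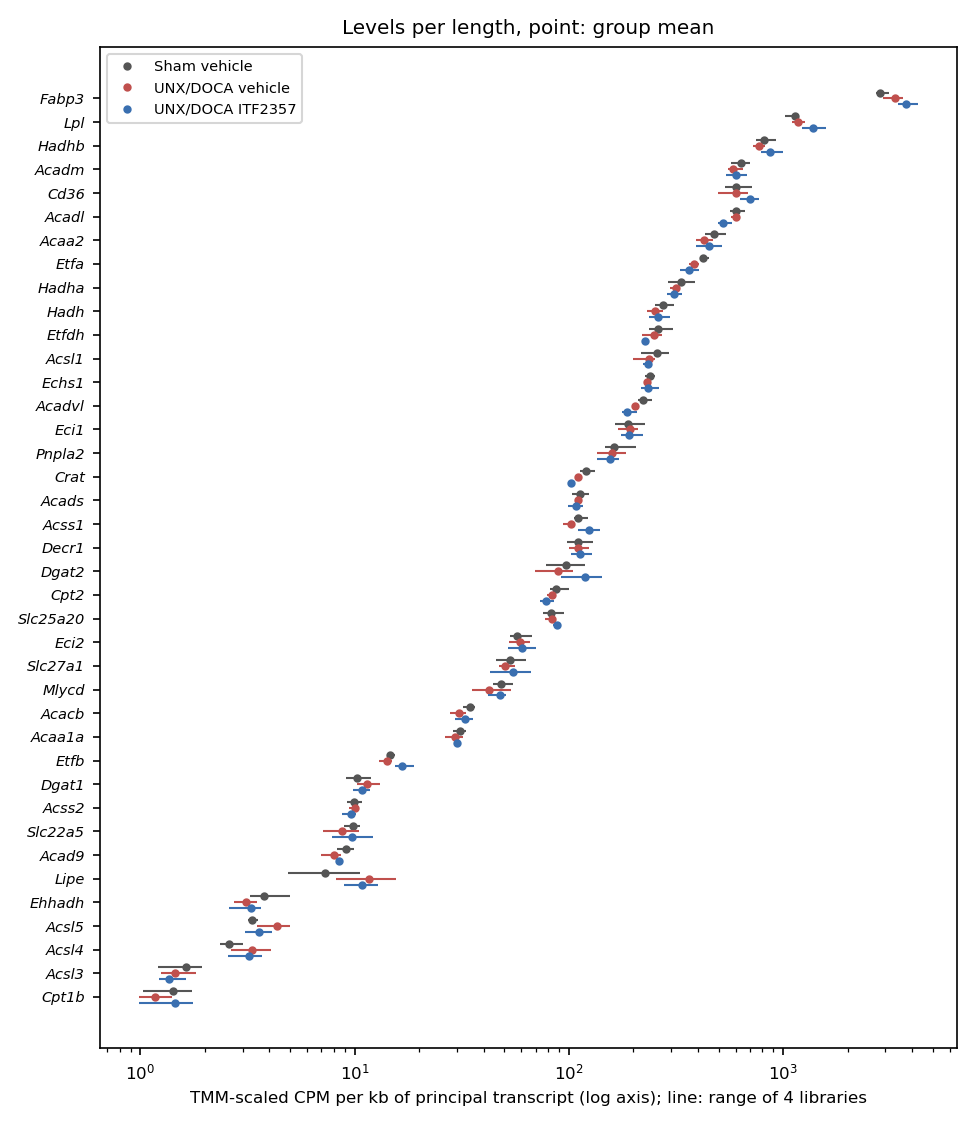
TMM-scaled CPM per kilobase of principal transcript (log axis) for the 39 genes, ordered by the Sham vehicle mean; points are group means and lines the range of 4 libraries. The order runs from Fabp3 at 2832 to Cpt1b at 1.43 CPM per kb in Sham vehicle, and the 3 groups lie close together for nearly every gene; the levels of Cpt1b and Etfb are uncertain.

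Taken as a share of all counts, the 39 genes held 2.20% ± 0.0924, 2.22% ± 0.0463 and 2.36% ± 0.109 (SD, n = 4) in the Sham, UNX/DOCA vehicle and ITF2357 groups. The ITF2357 libraries ran from 2.262% to 2.514% and the Sham libraries from 2.13% to 2.33%, so these groups overlapped. The UNX/DOCA vehicle libraries ran from 2.155% to 2.262% and met the ITF2357 range only at its lowest value. The sum is led by the genes of highest count, among them Lpl, Fabp3 and Cd36. Spread between animals was modest, with a median coefficient of variation of the 39 genes of 9.72%, 8.17% and 9.67% in these groups. For all genes of at least 3 CPM it was 8.11%, 12.5% and 10.8%.

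Of the best known regulators of the pathway, Ppara, Ppargc1a and Esrra did not pass in any comparison. Ppara, the fatty acid receptor of muscle and liver, was at 38.0, 43.9, 34.6 and 39.8 CPM in Sham vehicle, 31.6, 39.8, 9.52 and 25.4 CPM in UNX/DOCA vehicle, and 34.1, 44.5, 36.8 and 38.8 CPM in UNX/DOCA ITF2357. Replicate 3 of UNX/DOCA vehicle was by far the lowest, and the log2 fold change of -0.55 (SE 0.30, adjusted p = 0.392) was -0.13 without replicates 3 and 4. Ppargc1a, which encodes PGC-1alpha, stood at 91.2, 83.3, 120 and 85.2 CPM in Sham vehicle, 70.4, 396, 132 and 437 CPM in UNX/DOCA vehicle, and 266, 214, 145 and 432 CPM in UNX/DOCA ITF2357. All 4 ITF2357 libraries were above the Sham libraries, with a log2 fold change of 1.48 (SE 0.53, adjusted p = 0.155). UNX/DOCA vehicle libraries lay on both sides of them. Esrra, encoding ERRalpha, was nearly level at 122 ± 5.46, 110 ± 10.4 and 112 ± 8.52 CPM (SD, n = 4) in the Sham, UNX/DOCA vehicle and ITF2357 groups.

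Of the 24 regulators listed 1 passed, in UNX/DOCA ITF2357 against Sham vehicle, and 0 in either other comparison. It was Rxra, the partner of PPARs on DNA, which fell from 84.6 ± 2.52 CPM in Sham vehicle to 62.1 ± 9.06 CPM in UNX/DOCA ITF2357 (SD, n = 4; log2 fold change -0.45, SE 0.09, adjusted p = 0.0344). It stood at 67.3 ± 3.16 CPM in UNX/DOCA vehicle, with no overlap with Sham vehicle (-0.33, adjusted p = 0.134). Pparg (1.10, SE 0.23, adjusted p = 0.0954) and Hif1a (0.52, SE 0.15, adjusted p = 0.136) were above Sham vehicle in every UNX/DOCA vehicle library without passing in edgeR. DESeq2 gave adjusted p of 0.00081 for Pparg and 0.0357 for Hif1a, limma-voom with sample weights gave 0.0272 and 0.0479, and edgeR without UNX/DOCA vehicle replicate 1 gave 0.0175 for Pparg. The UNX/DOCA vehicle libraries had 17.4, 26.7, 35.5 and 29.6 CPM of Pparg and 79.4, 75.7, 78.8 and 113.8 CPM of Hif1a. Without replicates 3 and 4, which had the highest macrophage and neutrophil marker sums, the log2 fold changes were 0.79 (adjusted p = 0.645) for Pparg and 0.35 (adjusted p = 0.686) for Hif1a. The highest value of each gene was among those left out, which lowers the fold change in any case. A link to these markers was not tested.

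The 18 PPAR target genes listed outside the 39 were mostly above Sham vehicle, though 1 of 18 passed. In UNX/DOCA ITF2357 against Sham vehicle 17 of 18 fold changes were above 0, with a median of 0.40 on the log2 scale. In UNX/DOCA vehicle against Sham vehicle 16 of 18 were, with a median of 0.26. Of all genes 52.3% and 51.1% were above 0. The list was chosen with earlier results of these data known and does not hold every PPAR target, so these shares are not a test of PPAR targets as a class. Acot1, a thioesterase that releases free fatty acid from acyl-CoA, rose in UNX/DOCA ITF2357 from 3.95, 3.46, 8.55 and 5.01 CPM in Sham vehicle to 14.5, 11.9, 9.48 and 18.7 CPM (log2 fold change 1.38, SE 0.29, adjusted p = 0.0384). UNX/DOCA vehicle libraries had 8.03, 4.85, 5.07 and 6.37 CPM of Acot1. Angptl4, a secreted inhibitor of lipoprotein lipase, was at 4.28 ± 2.36, 19.97 ± 10.5 and 17.95 ± 14.7 CPM (SD, n = 4) in the Sham, UNX/DOCA vehicle and ITF2357 groups. Both UNX/DOCA groups were above every Sham library without passing (2.24, adjusted p = 0.133, and 2.09, adjusted p = 0.0876). Fabp4, the adipocyte and endothelial fatty acid binding protein, gave 76.0 ± 9.03, 117 ± 16.5 and 135 ± 50.6 CPM (SD, n = 4; 0.83 in UNX/DOCA ITF2357 against Sham vehicle, adjusted p = 0.0717). Pdk4 and Ucp3 overlapped between all groups, with Pdk4 ranging from 298 to 1957 CPM over the 12 libraries.

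**Figure D5:**
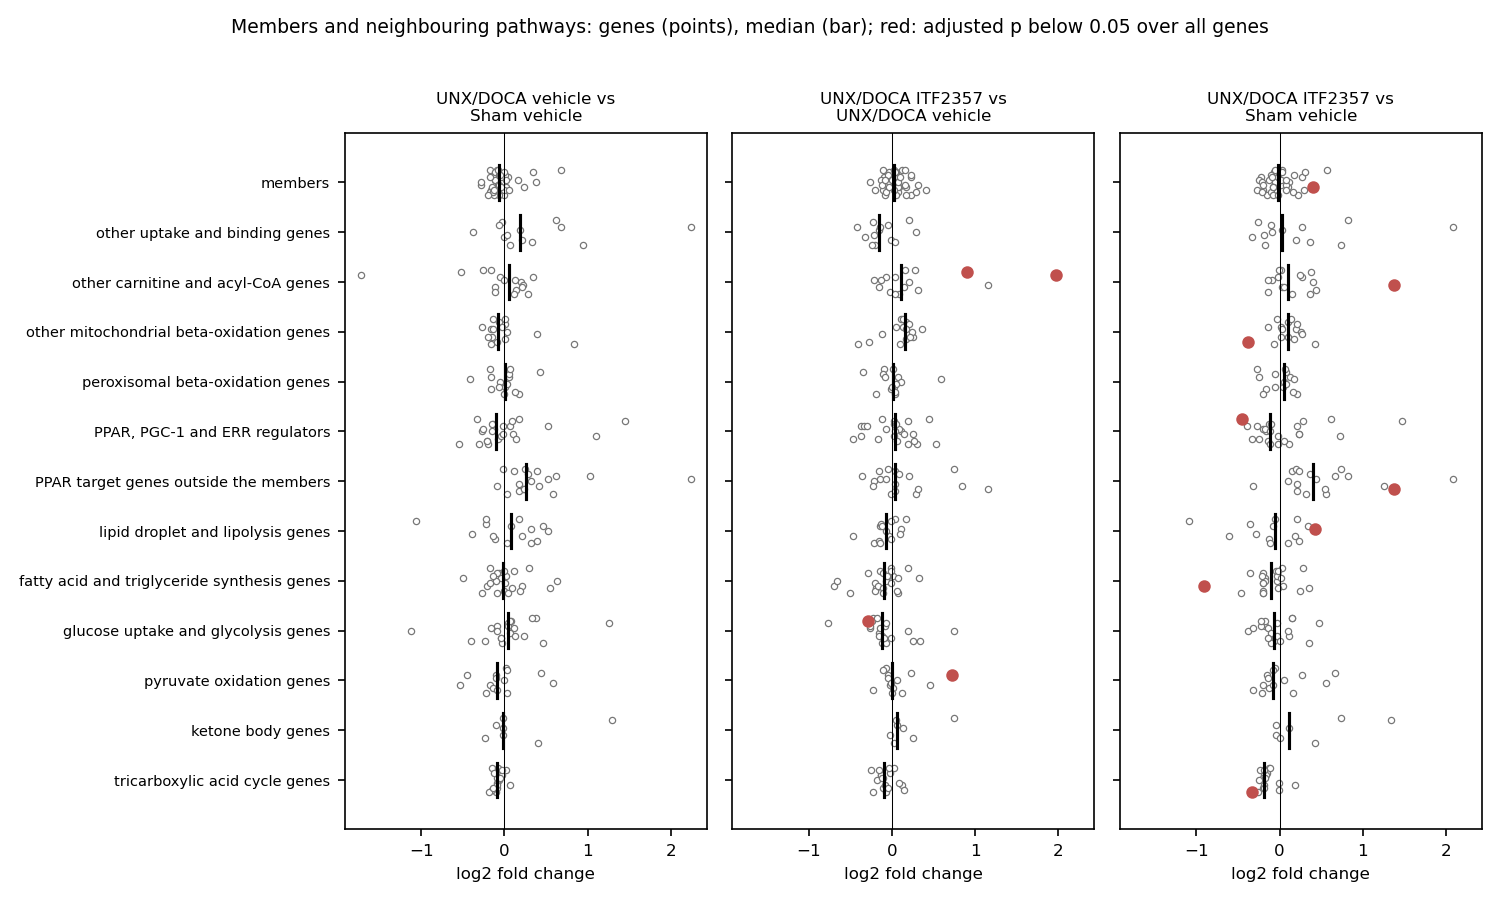
Log2 fold change (horizontal axis) of each tested gene of the 39 and of 12 neighbouring lists, with the list median as a bar, in the 3 comparisons; red points passed the adjusted threshold. The 39 genes lie close to 0 with Fabp3 as their single red point, and the tricarboxylic acid cycle list lies mostly below 0 in all 3 comparisons (16, 14 and 17 of 18 genes).

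Other genes of uptake, activation and oxidation added few calls. Of 16 other carnitine and acyl-CoA genes tested, 2 rose in UNX/DOCA ITF2357 against UNX/DOCA vehicle: Acsl6, a long-chain synthetase, from 6.35 ± 1.06 to 11.9 ± 2.20 CPM (SD, n = 4; 0.90, SE 0.18, adjusted p = 0.0388), and Acss3, a short-chain synthetase of low level, from 0.319 ± 0.131 to 1.28 ± 0.171 CPM (1.97, SE 0.37, adjusted p = 0.0364). Neither passed without UNX/DOCA vehicle replicates 3 and 4 (adjusted p = 0.237 and 0.233). In Sham vehicle Acsl6 stood at 7.41, 11.4, 8.11 and 9.65 CPM and Acss3 at 0.760, 0.894, 1.94 and 0.761 CPM. For each gene these overlapped with the UNX/DOCA ITF2357 libraries. Acot1, given above, is also of this list and was its only call against Sham vehicle. A further 16 genes were listed for mitochondrial beta-oxidation, but some belong to branched-chain amino acid or propionyl-CoA breakdown, such as Acadsb and Pcca. Among these 16, Echdc3 fell from 25.3 ± 1.04 CPM in Sham vehicle to 19.5 ± 0.779 CPM in UNX/DOCA ITF2357 (-0.37, SE 0.06, adjusted p = 0.0215). Its UNX/DOCA vehicle libraries ran from 23.1 to 24.1 CPM. Acad11 and Acadsb, at 0.25 (adjusted p = 0.0698) and 0.36 (adjusted p = 0.0711), were above UNX/DOCA vehicle in every ITF2357 library. Among 13 other uptake and binding genes and 15 peroxisomal genes tested, 0 passed in any comparison; Vldlr, the very low density lipoprotein receptor, was below Sham vehicle in every UNX/DOCA vehicle library (-0.38, adjusted p = 0.157).

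Among 15 lipid droplet and lipolysis genes, Cidea, a droplet protein, rose in UNX/DOCA ITF2357 over Sham vehicle (17.5 ± 1.83 to 23.5 ± 1.59 CPM, SD, n = 4; 0.42, SE 0.09, adjusted p = 0.0367). Among 24 genes of fatty acid and triglyceride synthesis, Fasn, fatty acid synthase, fell from 23.6 ± 4.11 to 12.6 ± 3.38 CPM in the same comparison (-0.90, SE 0.20, adjusted p = 0.0436). Mlxipl, encoding the carbohydrate-response factor ChREBP, had -0.51 against UNX/DOCA vehicle and -0.46 against Sham vehicle in UNX/DOCA ITF2357, with adjusted p of 0.0588 and 0.0583. All of these values are of whole tissue, in which the cells that express each gene were not separated.

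Fuels other than fatty acids were looked at in the same way. Of 21 glucose uptake and glycolysis genes, Ldha, a lactate dehydrogenase subunit, fell from 498 ± 8.26 CPM in UNX/DOCA vehicle to 407 ± 26.3 CPM in UNX/DOCA ITF2357 (SD, n = 4; -0.29, SE 0.06, adjusted p = 0.0422). Slc2a4, the insulin-responsive glucose transporter, and Hk2, a hexokinase, did not pass (adjusted p 0.147 or more). Of 14 pyruvate oxidation genes, Pdp2, a phosphatase that activates pyruvate dehydrogenase, rose in that comparison from 16.3 ± 3.36 to 26.9 ± 4.20 CPM (0.72, SE 0.14, adjusted p = 0.0395). Without UNX/DOCA vehicle replicates 3 and 4 the adjusted p was 0.238 for Ldha and 0.254 for Pdp2. In Sham vehicle Ldha ran from 454 to 498 CPM and Pdp2 from 20.5 to 23.5 CPM. Of 7 ketone body genes 0 passed.

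In the tricarboxylic acid cycle, which oxidises the acetyl-CoA from all of these fuels, 17 of 18 genes were lower in UNX/DOCA ITF2357 than in Sham vehicle, with a median log2 fold change of -0.18. In UNX/DOCA vehicle 16 of 18 were already below Sham vehicle (median -0.09), and 14 of 18 were lower in UNX/DOCA ITF2357 than in UNX/DOCA vehicle (median -0.10); the differences between these comparisons were not tested. Cardiomyocyte markers had a median of -0.10 against Sham vehicle in UNX/DOCA ITF2357, with 1 of 12, Mybpc3, passing as lower (-0.37, adjusted p = 0.048), and their part in the result was not tested. Without Sham vehicle replicate 3 and UNX/DOCA ITF2357 replicate 4, again 17 of 18 cycle genes were below 0 (median -0.21), 12 of them at an unadjusted p under 0.05 and 0 after adjustment. With all libraries, 13 of the 18 genes were lower at an unadjusted p under 0.05, against 9.39% of all genes tested. The list was chosen with earlier results of these data known, so this share is not a test of the cycle. After adjustment 1 of the 18 passed. That gene was Cs, citrate synthase, which fell from 1248, 1257, 1334 and 1247 CPM to 961, 1018, 1060 and 1011 CPM (-0.33, SE 0.05, adjusted p = 0.0152). Every ITF2357 library was also below the UNX/DOCA vehicle libraries (1166, 1195, 1233 and 1154 CPM), where the difference of -0.23 (SE 0.05, adjusted p = 0.0581) did not pass. Sdha and Dlst had -0.26 (adjusted p = 0.0604) and -0.25 (adjusted p = 0.0741) against Sham vehicle. With Sham vehicle replicate 3 and UNX/DOCA ITF2357 replicate 4 left out, Cs had -0.31 (adjusted p = 0.0559), Echdc3 -0.37 (adjusted p = 0.0678), Rxra -0.41 (adjusted p = 0.0866), Cidea 0.47 (adjusted p = 0.0564) and Fasn -0.84 (adjusted p = 0.0923), while Acot1 still passed (1.52, adjusted p = 0.0418). Acot1 in turn had 1.38 (adjusted p = 0.0503) without UNX/DOCA vehicle replicates 3 and 4.

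Each of the 10 calls in the neighbouring lists ended without certain single libraries, as that of Fabp3 did. Of the 12 fits that left out 1 library each, the call of Cs ended in 3 (Sham vehicle replicates 1, 2 and 4, adjusted p up to 0.0586) and that of Echdc3 in 4 (the same and UNX/DOCA ITF2357 replicate 3, up to 0.0848). The calls of Rxra and Fasn each ended in 7 (Sham vehicle replicates 1, 2 and 4, UNX/DOCA vehicle replicate 4, and UNX/DOCA ITF2357 replicates 2, 3 and 4). That of Cidea ended in these and without UNX/DOCA vehicle replicate 2, and that of Acot1 in these and without UNX/DOCA ITF2357 replicate 1. The call of Acss3 ended in 8 (Sham vehicle replicates 1, 2 and 4, UNX/DOCA vehicle replicates 3 and 4, and UNX/DOCA ITF2357 replicates 1, 3 and 4), and that of Acsl6 in these and without Sham vehicle replicate 3. Of these 12 fits, the call of Pdp2 held only in those without UNX/DOCA vehicle replicate 1 or 2, and that of Ldha only without UNX/DOCA vehicle replicate 1. Every one of these genes had the same direction in all 12 fits, and the adjusted p reached at most 0.127, for Fasn. Other settings also ended calls. A fit of only the groups compared ended those of Acss3 (adjusted p = 0.0793), Acsl6 (0.120), Ldha (0.147), Pdp2 (0.148) and Acot1 (0.0502). The replicate block ended those of Acss3 (0.0683), Acsl6 (0.0717), Ldha (0.0621), Pdp2 (0.0546), Acot1 (0.055) and Cidea (0.058). Without a filter on low counts those of Acot1 (0.106), Echdc3 (0.0541), Cidea (0.0621), Fasn (0.0582) and Ldha (0.070) ended, and with scaling by library totals those of Acsl6 (0.0505), Rxra (0.059) and Fasn (0.0597). The calls of the cell type markers Thrsp and Mybpc3 were not examined without single libraries or under other settings.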

How the data were processed

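Left ventricular RNA of 12 mice (3 groups of 4) was analysed from the deposited table of raw counts per Ensembl gene, which the authors left unnormalized; its columns match the sample titles. Per the labels' protocols, libraries were poly(A)-selected and strand-specific. Per the submitters' processing notes, FastQC 0.11.9 and STAR 2.7.10b were used with the mm39 build. For the counting tool, its strand setting and the annotation no source used here gives a name. A treatment label numbers the ITF2357 libraries differently from their titles, and the titles were used.

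Symbols came by Ensembl identifier from a GRCm38 annotation (51486 rows matched, at least 99.17% of each library's counts). Gene positions of that build were used only for exon overlaps and lengths and for RefSeq promoter windows. In edgeR 4.0.16 (R 4.3.3), genes were filtered with filterByExpr (minimum count 10), scaled by TMM and fitted over all 12 libraries by quasi-likelihood with robust dispersion and a term per group (9 residual degrees of freedom, common biological coefficient of variation 0.187). Standard errors were derived from each log2 fold change and its F statistic. The procedure was also run on simulated counts with planted changes. The outcome is not given here, and it is not used to say how small a change could have been found. Adjusted p-values come from edgeR where no tool is named.

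The genes and lists were chosen with earlier results of these data known. The naming rule gave every library's value for each of the 39 genes that passed and for Cd36, Lpl, Cpt1b, Acadm, Acadvl, Hadha, Hadhb, Acsl1, Acacb, Mlycd, Pnpla2 and Ehhadh, named others without group overlap, and took up to 3 genes of smallest p from each neighbouring list, of which the text gives fewer for some; other genes given by library were chosen after their values were seen. Alternatives were RLE scaling, library totals, no mitochondrially encoded genes, no filter, DESeq2 1.42.0, limma-voom with sample quality weights (limma 3.58.1), a filter at 1 CPM in at least 4 libraries, only the groups compared, a replicate block and each library left out. Added after seeing the data were 2 pairs of libraries left out and the principal-transcript length.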

Additional observations from a re-analysis of the deposited data

Results flagged for a closer look

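Among the 39 genes, 117 sets of 4 libraries were examined for a library far from the other 3, by its gap to the nearest library over the whole range (Dixon's test at 95%). Chance alone flags about 5% of such sets, and 9 were found, 7 with a high and 2 with a low library. Sham vehicle replicate 3 was the high library in 5: Fabp3 at 2576 CPM against 2241 to 2257 in the others, Acss1 at 446.4 against 383.7 to 388.7, Eci2 at 117.5 against 93.1 to 94.9, Etfa at 624.9 against 570.7 to 576.3, and Pnpla2 at 368.8 against 266.5 to 269.8 CPM. Sham vehicle replicate 2 was low for Lpl, at 4181 CPM against 4800 to 4893. UNX/DOCA vehicle replicate 3, the library with the highest neutrophil marker sum, was low for Acsl1, at 774.8 CPM against 959.8 to 988.7. UNX/DOCA vehicle replicate 2 was high for Crat, at 486.1 CPM against 458.2 to 458.9, and UNX/DOCA ITF2357 replicate 4 was high for Acadvl, at 452.4 CPM against 383.5 to 393.9. For Fabp3 and Acss1 the high Sham value lies toward the UNX/DOCA ITF2357 values, and for Etfa it lies away from them.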

How the results depend on the processing

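Results are given in the order UNX/DOCA vehicle against Sham vehicle, UNX/DOCA ITF2357 against UNX/DOCA vehicle, and UNX/DOCA ITF2357 against Sham vehicle. Of the 39 genes, 0, 0 and 1 passed, with these exceptions, whose cause was not tested: library totals gave 3 in the last comparison (Fabp3, Lpl, Acadvl); DESeq2 gave 1 (Acss1) in the second and 4 (Fabp3, Lpl, Crat, Acadvl) in the last; limma-voom with sample weights gave 1 (Fabp3) in the first and 4 (Fabp3, Crat, Acadvl, Etfa) in the last. Leaving out 1 library gave 0 to 1 in the last, and leaving out Sham vehicle replicate 3 with UNX/DOCA ITF2357 replicate 4 gave 0. The labels do not say whether replicate numbers pair animals. Over 12 same-numbered pairs centred expression correlated from -0.187 to 0.246 (median 0.0043). Pairs of different numbers were not compared, so these values cannot decide whether a replicate number carries a shared batch. With the replicate block 0 of the 39 passed in the last comparison (Fabp3 0.40, adjusted p = 0.0573), and over all genes the replicate block gave 31, 68 and 192.

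Over all genes 0, 153 and 298 passed. No filter gave 210 and 352 in the first and second, DESeq2 593, 928 and 1180, and limma-voom with sample weights 521, 251 and 1506. Fits of only the groups compared gave 5 in the second and 475 in the last. Leaving out 1 library gave 0 to 380, 14 to 243 and 17 to 616. Leaving out UNX/DOCA vehicle replicates 3 and 4 gave 1, 12 and 481, and Sham vehicle replicate 3 with UNX/DOCA ITF2357 replicate 4 gave 20 in the second and 40 in the last. The other settings stayed within 1.5 times.

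Signs changed by more than 1 SE for uncalled genes. Without UNX/DOCA vehicle replicates 3 and 4 these were Cd36 (0.13) in the first comparison and Pnpla2 (0.11), Lipe (0.28), Dgat1 (0.044) and Esrra (-0.087) in the second. Leaving out 1 library took Fabp4 from -0.018 to 0.37, Bdh1 from -0.11 to 0.10 and Cpt1a from -0.14 to 0.20 in the second, the negative values being without UNX/DOCA ITF2357 replicate 2. Among 2691 comparisons of a gene of the 39 with an alternative, 128 more sign changes of uncalled genes were within 1 SE. The lowest totals over the 12 libraries were 1315 counts for Cpt1b and 1978 for Acsl3, and how much of their intervals is counting error was not tested.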
